A study of Mus musculus with 3 samples.

Results

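The genes described here are 8 homeobox genes of the mouth and face, Msx1, Msx2, Barx1, Barx2, Pitx1, Pitx3, Alx1 and Alx4, out of 21631 protein-coding genes of chromosomes 1 to 19 and X. Their regions were chosen as those that carry the gene's name in the authors' annotation, whatever the location class, or that overlap the gene's bounds. This gave 9 of 7838 regions in replicate 1 and 8 of 8093 in replicate 2. The regions come from chromatin immunoprecipitation and sequencing (ChIP-seq) of H2AK119ub, histone H2A with ubiquitin on a lysine of its tail. The chromatin was that of lingual epithelium from newborn mice (postnatal day 0) of genotype "Control", with no allele, strain or sex given. Cells were sorted by the surface protein EpCAM from tongues without the circumvallate papillae, and the series has 2 H2AK119ub libraries, called biological replicates, and 1 input library, not analysed here. All libraries share this genotype, so there was no contrast between conditions, and whether animals were pooled is not given in the sources used here.

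H2AK119ub is laid down by Polycomb repressive complex 1 (PRC1), which holds developmental genes silent in tissues where they are not used. Homeobox genes encode transcription factors with a DNA-binding homeodomain and are among the best known Polycomb targets. Msx factors act downstream of Bmp signals in tooth, palate and skull, and Alx factors act in the mesenchyme of the midface. Barx1 is a factor of molar and stomach mesenchyme, Barx2 of craniofacial epithelia and muscle, Pitx1 of oral ectoderm, pituitary and hindlimb, and Pitx3 of lens and midbrain dopamine neurons, so the name of the group does not describe every member.

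Promoter sequences for 4 of the 8 genes, Msx1, Msx2, Barx1 and Pitx3, were in the RefSeq table of build GRCm38.p6. Barx2, Pitx1, Alx1 and Alx4 had no entry. The 250 bases before each start are shown because every one of these windows lay wholly inside a called region in both replicates. They are written 5′ to 3′ on the strand of the gene, with each CG dinucleotide (CpG) in capitals. The Msx1 stretch is chr5:37824586-37824835 (minus strand), that of Msx2 chr13:53472781-53473030 (minus), that of Barx1 chr13:48662786-48663035 (plus) and that of Pitx3 chr19:46148326-46148575 (minus).
Msx1: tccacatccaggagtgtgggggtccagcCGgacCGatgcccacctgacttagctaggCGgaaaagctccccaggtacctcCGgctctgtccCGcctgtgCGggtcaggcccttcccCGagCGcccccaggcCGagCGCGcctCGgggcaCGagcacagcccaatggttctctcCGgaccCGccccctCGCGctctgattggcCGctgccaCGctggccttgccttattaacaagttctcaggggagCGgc
Msx2: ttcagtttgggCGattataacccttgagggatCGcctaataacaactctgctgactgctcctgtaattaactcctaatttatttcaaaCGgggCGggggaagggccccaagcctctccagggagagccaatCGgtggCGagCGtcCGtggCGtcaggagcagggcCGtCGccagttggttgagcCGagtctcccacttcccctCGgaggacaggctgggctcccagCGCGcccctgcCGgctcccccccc
Barx1: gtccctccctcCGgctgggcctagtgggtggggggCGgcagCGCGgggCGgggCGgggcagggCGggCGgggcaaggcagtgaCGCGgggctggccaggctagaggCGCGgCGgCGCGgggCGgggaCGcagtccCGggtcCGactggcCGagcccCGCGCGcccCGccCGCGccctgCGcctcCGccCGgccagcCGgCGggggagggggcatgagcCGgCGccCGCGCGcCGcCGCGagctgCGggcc
Pitx3: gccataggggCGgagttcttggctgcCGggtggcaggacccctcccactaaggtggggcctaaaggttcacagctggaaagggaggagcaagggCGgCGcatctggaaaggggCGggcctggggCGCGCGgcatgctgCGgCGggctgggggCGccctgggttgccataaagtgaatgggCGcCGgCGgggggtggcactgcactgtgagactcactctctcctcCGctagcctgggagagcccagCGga

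Whole windows run 250 bases before to 50 bases after the start. Of 21045 such windows of protein-coding genes, 5.26% lay wholly inside a region in both replicates. The Barx1 window held 50 CpG in its 300 bases, more than 98.9% of all windows, and its GC content was 84.7%. The Msx1 window held 29 CpG (82.7th percentile), the Msx2 window 22 (68.4th) and the Pitx3 window 20 (63.7th). All 4 counts were above the median of all windows, 13 CpG, and also above the median of windows inside a region in both replicates, 19 CpG. All 4 genes with a window were wholly covered by regions in both replicates, and the other genes of the group had no window. Coverage therefore could not vary over this range, and CpG content could not be set against it.

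The printed stretches were searched on both strands for 3 homeodomain-type motifs and for the CCAAT box. TAATTA occurred once, in Msx2, and 4.24% of all stretches of this length hold it. TAATTG and TAATCC were in none of the 4 stretches, and 6.29% and 5.77% of all stretches hold them. CCAAT was found at 2 places in Msx1 and 1 in Msx2, and 35.6% of all stretches hold it. A match describes these letters alone.

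**Figure D1:**
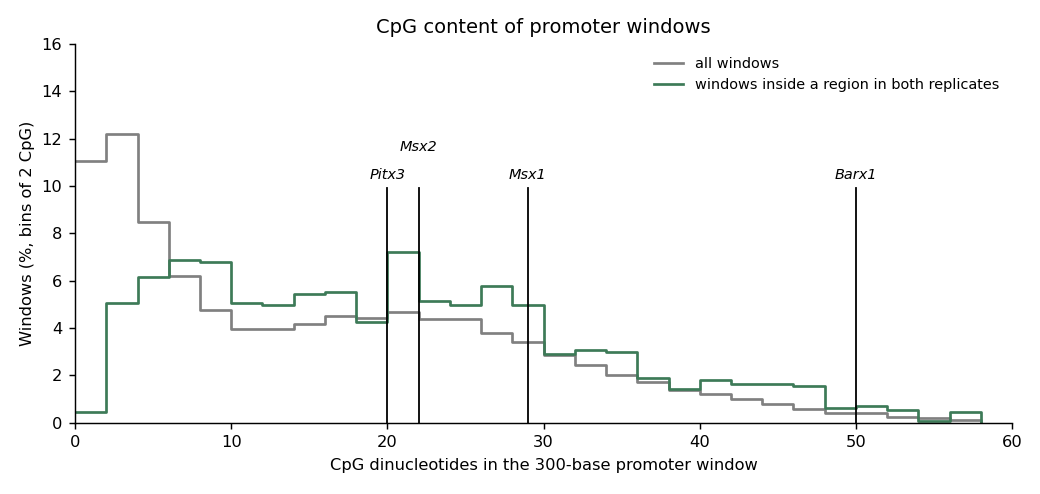
CpG dinucleotides per 300-base promoter window (x axis) against the percent of windows in bins of 2 CpG (y axis), for all windows (grey) and for windows inside a region in both replicates (green). Vertical lines mark the 4 genes with a window: Pitx3 at 20, Msx2 at 22, Msx1 at 29 and Barx1 at 50, all to the right of the overall median of 13.

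The first question was which of the 8 genes carried the mark. Promoter regions in both replicates named Msx1, Msx2, Barx1, Pitx3, Alx1 and Alx4, that is 6 of 8, where 8.82% of all protein-coding genes were so named. Pitx1 was named by a promoter region in replicate 1 alone, and Barx2 by none. Replicate 1 thus named 7 of the 8 against 12.8% of all genes, and replicate 2 named 6 against 12.4%. By coordinates alone, the same 6 genes had a region over the gene bounds in both replicates, against 13.3% of all genes. The genes were picked with results of these data known, so the counts describe the group and test nothing.

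Both Msx genes and both Alx genes were named in each replicate. In the other families Barx1 and Pitx3 were named in each replicate, and their relatives Barx2 and Pitx1 were not. Of the 17 regions in all, 13 were of the promoter class, 3 were distal, 1 was in a gene body and 0 were intergenic. Over all regions, 2701 of 7838 in replicate 1 and 2623 of 8093 in replicate 2 were of the promoter class. Regions were chosen by gene name or overlap with the gene, so the 0 follows largely from that choice. The promoter count is shaped by the same choice, since the whole lists also hold intergenic regions without a gene name. The lists give no height, so a called region tells neither how many of the sorted cells carried the mark nor how much of it each had.

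**Figure D2:**
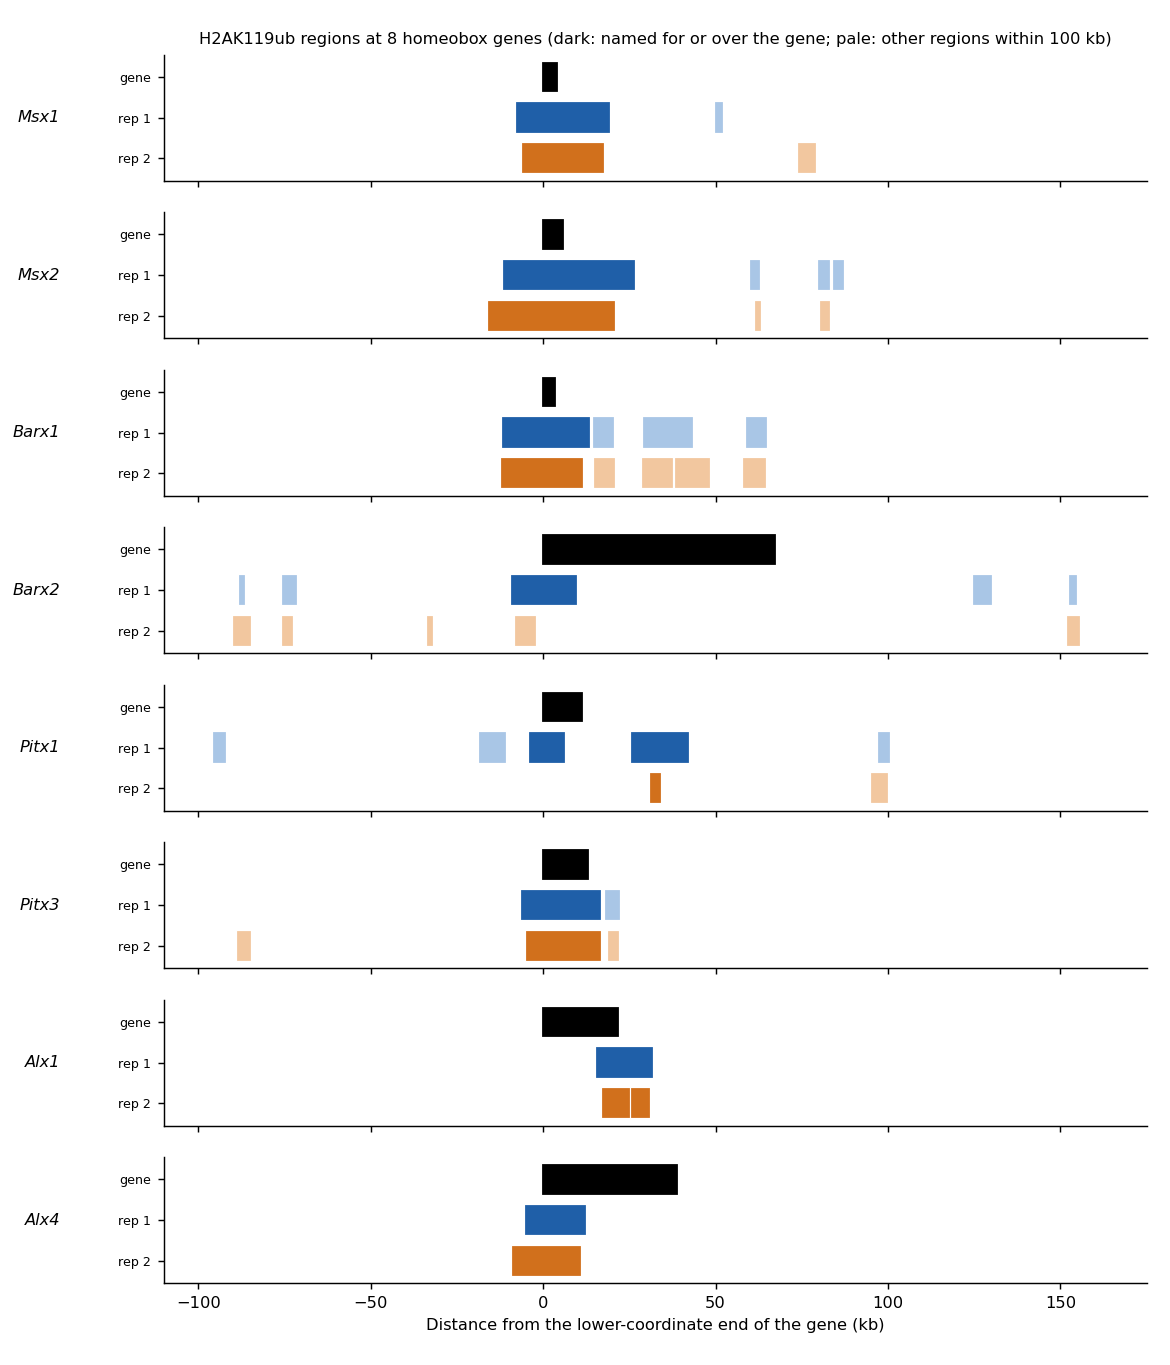
Maps of the 8 genes to a common scale, with the distance from the lower-coordinate end of each gene in kb on the x axis. Black bars are genes, dark bars are regions named for or over the gene in replicate 1 (blue) and replicate 2 (orange), and pale bars are other regions within 100 kb. Msx1, Msx2, Barx1 and Pitx3 lie inside their regions, Alx1 and Alx4 are covered at 1 end, and Barx2 and Pitx1 have no replicate 2 region over the gene.

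Msx1, a factor without which tooth buds arrest and the palate stays cleft, lies on chromosome 5 from 37820491 to 37824585. Its promoter region ran from 37813053 to 37839599 in replicate 1 (26.5 kb) and from 37814715 to 37837982 in replicate 2 (23.3 kb), a width of 24.9 ± 2.32 kb (SD, n = 2). The gene, 4.10 kb long, was wholly covered in both. Before the start the region reached 15.01 and 13.4 kb, and beyond the other end 7.44 and 5.78 kb. The authors gave the same regions the name of Msx1os, an antisense RNA gene that lies inside the Msx1 bounds. Regions have no strand, so the mark at these overlapping genes cannot be told apart.

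Msx2, a factor of skull, hair and enamel formation, had the widest region of the group. The gene lies on chromosome 13 from 53466881 to 53472780. Its promoter region ran from 53455541 to 53493090 in replicate 1 (37.5 kb) and from 53451206 to 53487403 in replicate 2 (36.2 kb), or 36.9 ± 0.96 kb (SD, n = 2). These widths were above those of 97.3% and 98.0% of the promoter regions of their lists. Both replicates of Msx2 were wider than both of Msx1, so the gap between the relatives was larger than the spread of either, with no test at n = 2. In replicate 1 the region reached 20.3 kb before the start and 11.3 kb past the other end, and in replicate 2 it reached 14.6 and 15.7 kb, so its 2 edges moved the same way along the chromosome.

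Barx1 lies on chromosome 13 from 48663036 to 48666507. At 3.47 kb it is the shortest of the 8 genes, and its promoter region measured 25.03 kb from 48651379 to 48676406 in replicate 1 and 23.2 kb from 48651110 to 48674358 in replicate 2, or 24.1 ± 1.26 kb (SD, n = 2). The lower edges were 0.269 kb apart. Barx1 also had the greatest length of other regions nearby. Beyond its higher-coordinate edge followed 3 intergenic regions within 100 kb in replicate 1 (25.6 kb in all) and 4 in replicate 2 (29.6 kb in all). Every one of them overlapped a region of the other replicate. The nearest was 5.72 kb wide in replicate 1 and 5.48 kb in replicate 2, and the next was 14.2 kb wide in replicate 1 and stood as regions of 8.45 and 9.53 kb in replicate 2. No such region lay within 100 kb on the other side, towards Ptpdc1.

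Barx2 was the exception to the pattern of its relative. The gene lies on chromosome 9 from 31846044 to 31913285 and is 67.2 kb long, the longest of the 8. In replicate 1 a gene body region of 18.6 kb (31836978 to 31855606) lay across its lower-coordinate end and covered 14.2% of the gene. This width exceeded that of 96.7% of gene body regions in the list. In replicate 2 no region carried its name or lay over it. An intergenic region of 5.47 kb (31838180 to 31843649) ended 2.40 kb short of the gene and lay wholly within the span of the replicate 1 region. The part of the gene beyond 31855606 held no region in either list. Counting this region, the intergenic regions within 100 kb numbered 5 in replicate 2, and there were 4 in replicate 1.

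Pitx1 lies on chromosome 13 from 55825044 to 55836190. In replicate 1 a promoter region of 9.75 kb (55821299 to 55831046) covered 53.9% of the gene, at its lower-coordinate end, and reached into the adjacent gene Catsper3. Replicate 2 had no region there, and its nearest lay 20.1 kb from the gene. Both lists named Pitx1 for a distal region on the higher-coordinate side, which measured 16.3 kb from 55850901 to 55867173 in replicate 1 and 2.62 kb from 55856275 to 55858897 in replicate 2. The narrower lay inside the wider, and their widths differed 6.21-fold. Pitx1 thus had a region at the same distal place in both replicates and a region on the gene in a single replicate.

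Pitx3 lies on chromosome 19 from 46135281 to 46148325. Its promoter region measured 22.5 kb from 46129138 to 46151670 in replicate 1 and 21.1 kb from 46130656 to 46151747 in replicate 2, or 21.8 ± 1.02 kb (SD, n = 2). The higher-coordinate edges were 0.077 kb apart, the closest agreement of any edge among the 6 genes called in both. The same regions were given the names of Elovl3, a fatty acid elongase gene that overlaps Pitx3 and was wholly covered, and of Gbf1, whose bounds they stopped 0.839 and 0.762 kb short of. The mark at Pitx3 and at Elovl3 cannot be told apart from these lists. A separate promoter region inside Gbf1 (3.78 and 2.47 kb) followed in both replicates.

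Alx1 and Alx4 were covered at 1 end, not throughout. Alx1 lies on chromosome 10 from 103007847 to 103029549, and its promoter region was 15.9 kb in replicate 1 (103023548 to 103039452) but 7.56 kb in replicate 2 (103025136 to 103032698). In replicate 2 a distal region of 4.79 kb named Alx1 followed after a gap of 1.02 kb, and both together spanned 13.4 kb, inside the replicate 1 region. The widths of 11.7 ± 5.90 kb (SD, n = 2) therefore depended on whether the stretch was called whole. Coverage of the gene was 27.7% and 20.3%, all at its higher-coordinate end. The same regions wholly covered Gm34298, a predicted protein-coding gene that overlaps that end.

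Alx4, a factor of the midface, hair and digit number, lies on chromosome 2 from 93642434 to 93681341. Its promoter region measured 17.3 kb from 93637408 to 93654712 in replicate 1 and 19.4 kb from 93633833 to 93653203 in replicate 2, or 18.3 ± 1.46 kb (SD, n = 2). It was the single gene of the 6 whose region was wider in replicate 2. Coverage was 31.6% and 27.7%, at the lower-coordinate end. No other region lay within 100 kb of Alx1 or of Alx4 in either list, unlike the other 6 genes.

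In order of width, Msx2 came first in both replicates. Msx1 (23.3 to 26.5 kb) and Barx1 (23.2 to 25.03 kb) overlapped in range and were not separated, Pitx3 (21.1 to 22.5 kb) followed close below, then Alx4 (17.3 to 19.4 kb) and Alx1 (7.56 to 15.9 kb). Across all promoter regions the median width was 8.08 kb in replicate 1 and 6.84 kb in replicate 2. Only the Alx1 region of replicate 2, at the 54.4th percentile, and the Pitx1 promoter region of replicate 1, at the 57.9th, stood near the middle of their lists, and the other 11 promoter regions of the group were between the 78.97th and the 98.0th percentile. For the 6 genes named in both, the median of the mean widths was 23.0 kb, beside 10.1 kb for all 1908 genes so named.

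Coverage fell into separate classes. Msx1, Msx2, Barx1 and Pitx3 were wholly covered in both replicates, against 1.89% of all protein-coding genes. Alx4 averaged 29.6% ± 2.74 and Alx1 24.0% ± 5.17 (SD, n = 2), and for Pitx1 and Barx2 the value of replicate 2 was 0. Length went along with this. The wholly covered genes were 3.47 to 13.0 kb long and Alx1, Alx4 and Barx2 21.7 to 67.2 kb, while Pitx1, at 11.1 kb, was shorter than Pitx3. With a limit of 15 kb, set after the lengths were seen, and over all genes named by a promoter region in both replicates, 41.7% of the 895 shorter genes were wholly covered, and 1.88% of the 1013 longer ones.

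**Figure D3:**
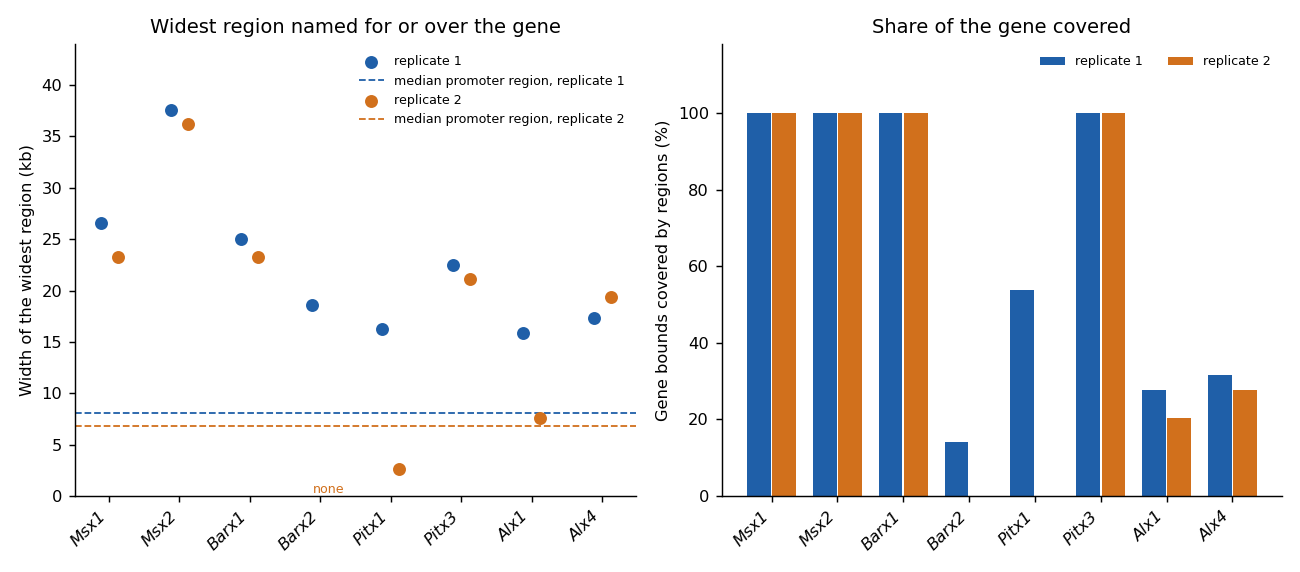
Left, width in kb of the widest region named for or over each gene, 1 point per replicate, with dashed lines at the median promoter region of each list (8.08 and 6.84 kb). Right, percent of the gene bounds covered, 1 bar per replicate. Msx2 is widest at 37.5 and 36.2 kb, Barx2 has no such region in replicate 2, and 4 genes reach 100% in both replicates.

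Edges were compared between replicates for the 6 genes named in both. The distance between corresponding edges of the widest regions ranged from 0.077 to 6.75 kb, with medians of 1.63 kb for lower and 1.83 kb for higher edges. The stretch common to both replicates made up from 47.5% (Alx1) to 92.9% (Pitx3) of the span that either covered. Of the 9 regions of the group in replicate 1, 7 overlapped a region of the group in replicate 2 (77.8%, exact 95% binomial interval 40.0 to 97.2%), and 8 of 8 did the reverse (100%, 63.1 to 100%). The remaining replicate 1 regions were that of Barx2, which met an intergenic region of replicate 2, and the Pitx1 promoter region, which met none. Counting any region of the other list, the shares were 88.9% and 100%, beside 61.1% and 61.2% of all regions and 73.7% and 73.4% of all promoter regions. Intervals cover counting error only and treat regions as independent draws. The genes were chosen with results known, and both Alx1 regions of replicate 2 met the same region of replicate 1. The intervals therefore measure no spread over genes or replicates.

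Of the 16 protein-coding genes on either side of the 8, 4 had a region over them in both replicates, against 13.3% of all genes, 1 had one in replicate 1 alone and 11 had none. The protein-coding genes on either side of Msx1 (Cytl1 and Stx18), Barx1 (Ptpdc1 and Phf2), Barx2 (Tmem45b and Arhgap32) and Alx4 (Cd82 and Ext2) had no region over them in either list. Of Msx2's neighbours, Gm38564 had none, and the dopamine receptor gene Drd1, 578 kb away, was wholly covered in both by regions of its own. Rassf9 next to Alx1 and Macroh2a1 next to Pitx1 had none, and Catsper3 was covered to 24.7% in replicate 1 alone. That share came from the Pitx1 promoter region and from a separate distal region of 7.03 kb named for Catsper3. Elovl3 next to Pitx3 and Gm34298 next to Alx1, which both overlap the gene beside them, were wholly covered in both, and Gbf1 was covered to 2.82% and 1.85%. Each list had 15 further regions within 100 kb of the 8 genes that were tied to none of them, of which 10 and 12 overlapped a region of the other list. Of all regions of the lists, 61.1% and 61.2% did so. Around Msx2 these were intergenic regions of at most 2.82 kb, of which those 54.3 and 74.2 kb away in replicate 1 had a counterpart in replicate 2. Around Msx1 each replicate had 1 region and they did not coincide.

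The next question was whether a relative and partners of these genes were called by the same rule. Msx3, a factor of the dorsal neural tube, was named in both replicates, against 8.82% of all protein-coding genes. Its promoter region was 25.7 kb wide in replicate 1 and 29.4 kb in replicate 2, or 27.6 ± 2.61 kb (SD, n = 2), so its range overlapped that of Msx1 and lay below that of Msx2. Like both of them, Msx3 was wholly covered in both replicates.

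Of 23 other homeobox genes of face, jaw or oral tissue, 20 were named in both replicates, against 8.82% of all protein-coding genes. Among the widest of their regions were those of Hoxa2, within the Hoxa cluster (192 and 157 kb), of Dlx5 and Dlx6, which share a region (48.5 and 47.4 kb), of Barhl2 (31.8 and 35.7 kb) and of Nkx2-5 (34.9 and 30.9 kb). Dlx2 was named in replicate 2 alone and Isl1 in replicate 1 alone. Prrx2, named here after its values were seen, was in neither. The median of the mean widths of the 20 was 23.3 kb, beside 23.0 kb for the 6 genes.

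Of 40 signals and transcription factors of tooth, palate and tongue development, 21 were named in both replicates, 4 in a single replicate and 15 in neither. Over all 21631 protein-coding genes these counts were 1908, 1644 and 18079. The widest regions were those of Tbx1 (62.5 and 59.6 kb), Hand2 (56.6 and 56.7 kb), Tfap2b (42.1 and 39.9 kb), Wnt10a (28.9 and 43.4 kb), Foxf1 (30.3 and 26.9 kb) and Foxf2 (27.8 and 26.0 kb). No region of replicate 1 lay over Wnt10a itself, while the gene was wholly covered in replicate 2. Bmp4, the signal that induces Msx1 in tooth mesenchyme, was named by a promoter region of 5.83 kb in replicate 2 alone, although regions covered 48.8% and 25.6% of the gene. Fgf3 and Pax9 were named in replicate 2 alone, and Sfrp2 in replicate 1 alone. The genes were listed for their roles, and both lists were drawn up with results of these data known.

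**Figure D4:**
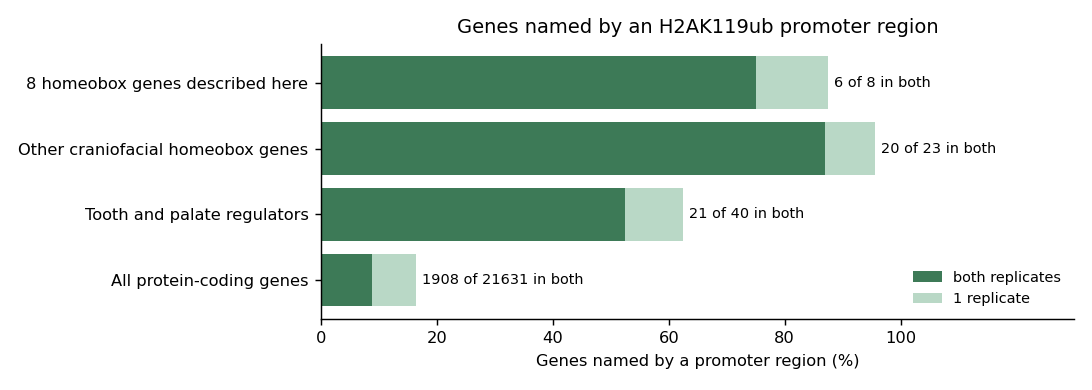
Percent of each gene list named by a promoter region in both replicates (dark green) or in 1 replicate (pale green). Bars give 6 of 8 for the genes described here, 20 of 23 for other craniofacial homeobox genes, 21 of 40 for tooth and palate regulators and 1908 of 21631 for all protein-coding genes.

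For Msx1, Msx2, Pitx3, Alx1 and Alx4, the gene outside the group with the nearest widths was found by the sum over both replicates of the absolute log2 differences in width, among 1901 genes. For Msx1 it was Aatf (26.2 and 23.7 kb), for Msx2 the nuclear receptor gene Nr2e1 (36.4 and 36.0 kb), for Pitx3 the neural gene Pou4f1 (21.9 and 21.4 kb), for Alx1 Decr1 (14.8 and 7.36 kb) and for Alx4 Tcea3 (17.2 and 19.9 kb). Likeness over 2 widths is a description.

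The labelled tissue was set against marker genes in the sense of where the mark lay, not of expression. Of 10 epithelial markers, Epcam, Cdh1, Trp63 and Krt14 had no region over them in either list, and Krt15, Krt4 and Krt13 were named and wholly covered in both. The other 3 lay between these: Krt5 was named and covered to 97.3% in replicate 2 alone, the integrin gene Itgb4 was covered to 43.9% and 19.6% without being named, and Itga6 to 20.2% in replicate 1 alone. Named in both were also 4 of 8 mesenchyme markers, 2 of 4 of muscle, 0 of 3 of endothelium and 0 of 2 of immune cells. The share of all protein-coding genes so named was 8.82%, so a count of 0 in lists this short tells nothing about a cell type. A further 1 mesenchyme and 1 endothelium marker were named in a single replicate. The part of other cell types in the regions of the 8 genes was not tested.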

How the data were processed

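The authors deposited 1 list of called regions for each H2AK119ub replicate, with chromosome, first and last coordinate in mm10, a location class (promoter, gene body, distal or intergenic) and gene names, per the file headers. The submitters' processing notes name Bowtie2 2.3.3 and SAMtools 0.1.19, with no role. No source used here gives the caller, its thresholds, how the input served, whether coordinates start at 0 or 1, or the class distances. Without heights or p-values, depth is unknown, and regions are compared by presence, width (last minus first coordinate) and overlap from 1 bp. The smallest gap between regions of a list was 1000 bp in replicate 1 and 999 bp in replicate 2, so closer signal may stand as 1 region.

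Gene bounds, without strand, came from a RefSeq table for GRCm38.p6 (mm10). Names were matched by symbol, then by a synonym of a single gene, which left 11 of the 3392 promoter assignments of replicate 1 and 10 of the 3276 of replicate 2 unmatched. A gene counted as called if both lists named it for a promoter region. With 1 group there was no test, only mean ± SD (n = 2) and exact (Clopper-Pearson) intervals. The overlap and coverage code was tested on simulated data with known answers. The genes and lists were chosen with earlier results of these data known. Named were all 8 genes, relatives and flanking genes, up to 6 called genes per list with the widest regions, up to 6 genes called in a single replicate, and the gene nearest in width. Some genes that this rule selects are not reported here. Alternatives were each replicate alone, either replicate, other ties of gene to region, wider or joined regions and other windows. Python 3.11.15, numpy 2.4.6, pandas 2.3.3, scipy 1.17.1 and matplotlib 3.10.9 were used.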

Additional observations from a re-analysis of the deposited data

How the results depend on the processing

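For 35 results, 130 values were computed under alternatives, of which 115 stayed within their tolerance (1.5 times for counts, the SD between replicates or the exact interval otherwise), 15 moved and 0 were reversed. With n = 2, a single replicate always lies within the SD of the mean, so per-gene values from a single replicate could not move. The Pitx1 width, a mean of 9.45 kb, thus counted as unchanged at 2.62 kb with replicate 2 alone. The 115 includes such values and is no measure of robustness for them. The 6 of 8 genes named in both replicates became 7 with replicate 1 alone, in either replicate, with any location class or within 5000 bp of a gene end, and stayed 6 under the other settings, regions above the median width included. Genes with a region over them in both replicates were 6, 8 with replicate 1 alone and 4 where 50% of the gene had to be covered. The median width over the 8 genes was 20.2 kb, 20.6 kb with replicate 1 alone and 21.1 kb with replicate 2 alone, where it covers 7 genes since Barx2 had no region, and 21.8 kb with regions under 5000 bp apart joined. The median share of the gene covered was 64.8%, from 63.8 to 76.9% with a single replicate. The 64.8% lies between the wholly covered genes and the next, Alx4 at a mean of 29.6%, so it describes no single gene. Regions within 100 kb, 15 per replicate, fell to a mean of 5.5 per replicate within 50 kb. Where overlap had to reach 50% of both regions, 55.6% of the regions of replicate 1 and 62.5% of those of replicate 2 met a region of the other list, beside 35.4% and 34.3% of all regions and 49.4% and 49.9% of all promoter regions. Counting any region of the other list, chosen after seeing the data, gave 88.9% for replicate 1. Regions over Pitx1 and Barx2 were found in replicate 1 alone. With no heights, depth and strength could not be weighed.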
